A study of Homo sapiens with 6 samples.

Results

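The genes described here carry pigment granules through the cell. They are 9 genes, MLPH, MYO5A, RAB27A, RAB27B, RAB32, RAB38, SYTL2, GPNMB and MYRIP, chosen by name for their roles in melanosome traffic and found by gene symbol among 58721 rows of a table of read counts. RNA was sequenced from A375, an established human melanoma line driven by mutant BRAF, in which CRISPR had been used. The SOX10 knockout group held 3 libraries of cells with a guide RNA against SOX10, which encodes a neural crest and melanocyte transcription factor, and the control group held 3 libraries of cells with a guide against mCherry, a fluorescent protein gene that the human genome lacks. Control cells are labelled wild type, and all cells were grown alike in serum-containing medium. Whether the knockout cells were a clone or a pool, and whether replicates came from separate cultures, is not stated in the labels, so the p-values below weigh differences against a spread among libraries that may be purely technical.

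Melanosomes are made from endosomes, filled with pigment enzymes and then moved to the cell edge. RAB32 and RAB38 are small GTPases that direct enzyme cargo to the maturing organelle. RAB27A on the mature melanosome binds melanophilin, the product of MLPH, which in turn binds the actin motor myosin Va, the product of MYO5A, and this chain holds the granule at the actin-rich periphery. Human loss of any link of that chain gives the silvery hair of Griscelli syndrome. MYRIP is a related linker that joins RAB27 proteins to myosins, SYTL2 is a synaptotagmin-like RAB27 effector that helps organelles dock at the plasma membrane, and GPNMB is a glycoprotein of melanosomes and lysosomes.

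The labels were checked on the targeted gene. SOX10 stood at 47.2, 47.8 and 41.5 CPM (read counts scaled to library size) in SOX10 knockout libraries, against 241, 237 and 223 CPM in control libraries. Total gene counts lay between 70075002 and 78148565 per library, so that the floor of 3 counts stood at no more than 0.0417 CPM. Of the melanocyte markers, MITF averaged 138 ± 2.29 CPM in SOX10 knockout and 57.5 ± 2.15 CPM in control libraries (SD, n = 3 each, as for all means below), but the pigment genes were low in every library. TYR, the gene of tyrosinase, had no read in SOX10 knockout libraries and averaged 0.00463 CPM in control libraries, PMEL averaged 0.370 and 0.623 CPM, and MLANA averaged 0.770 and 0.874 CPM in SOX10 knockout and control libraries. DCT, the gene of dopachrome tautomerase, fell while MITF rose, with 0.0657 ± 0.0258 CPM in SOX10 knockout and 1.62 ± 0.175 CPM in control libraries (edgeR adjusted p = 5.45e-06 for DCT and 9.86e-07 for MITF). The transport genes were therefore measured in cells with hardly any RNA of tyrosinase.

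The transport genes did not move together. RAB27B, SYTL2 and MLPH were 4.04 to 5.27 times as abundant in SOX10 knockout as in control libraries, RAB27A and GPNMB rose 1.28-fold and 1.30-fold, RAB38 fell to 50.8% of it, and MYRIP dropped close to the floor. MYO5A and RAB32 did not pass the test. In all, 5 of the 9 genes rose and 2 fell (quasi-likelihood test of edgeR, p adjusted by the Benjamini-Hochberg method over 19263 genes, threshold 0.05). Over all tested genes 28% passed in either direction, 14% upward and 14% downward. The 9 genes and the partner lists below were chosen with earlier results of these data known. Their shares beside that of all genes are therefore not an independent comparison. MYRIP had enough reads to be tested only through its control libraries. The 2 groups of libraries did not overlap for 7 of the 9 genes, the same 7 that passed the test, against 41.6% of all tested genes.

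**Figure D1:**
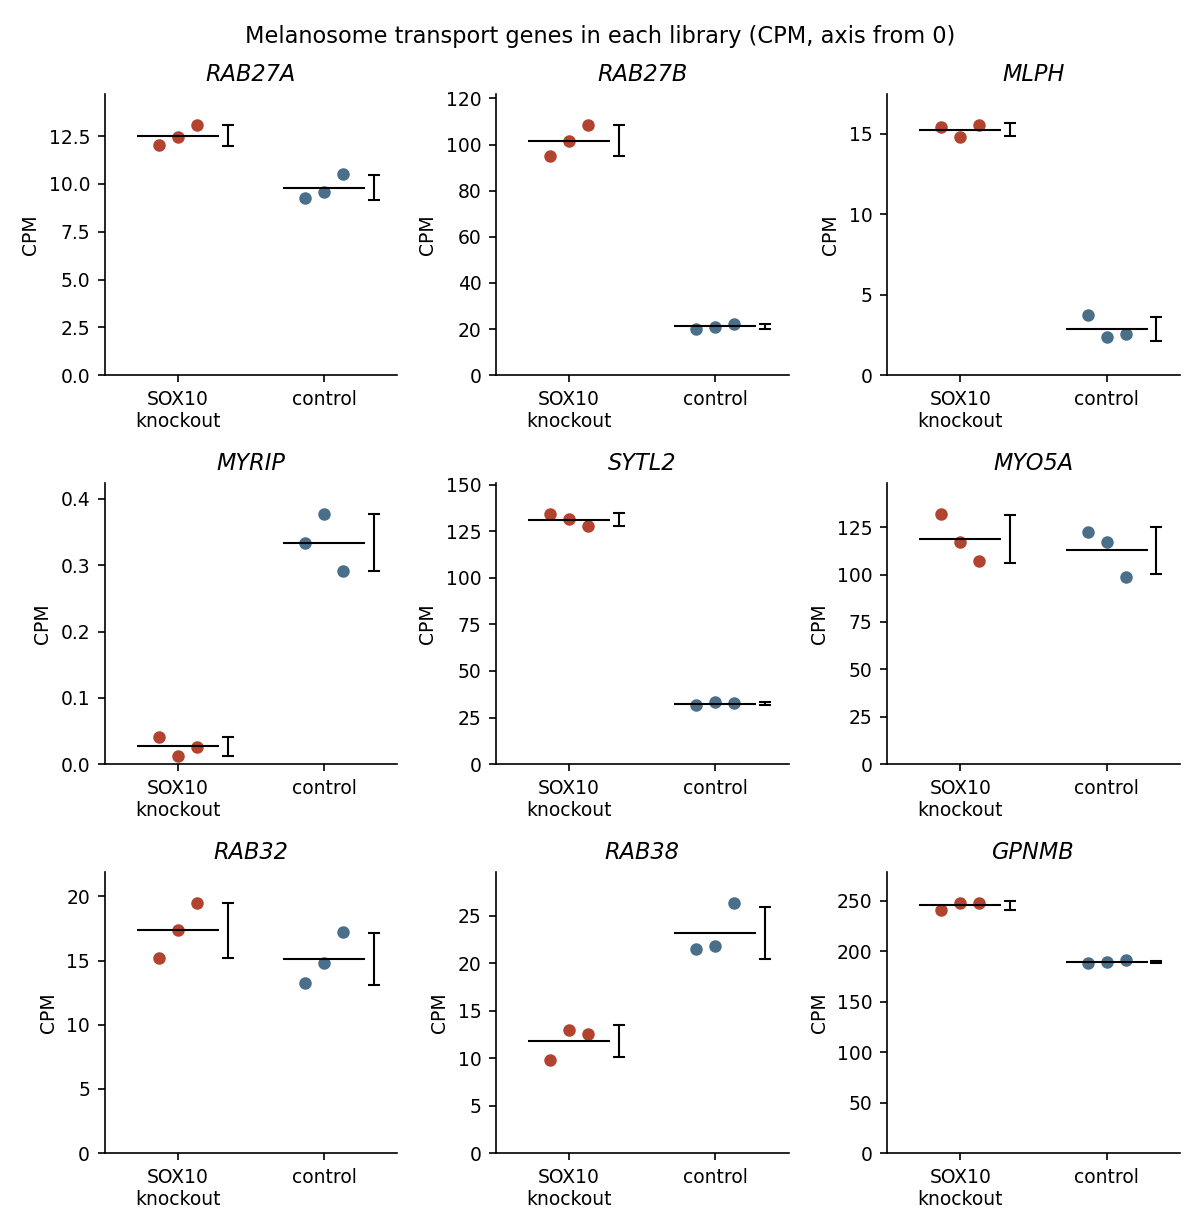
CPM of the 9 genes in each library, SOX10 knockout (red) left of control (blue), with the mean as a line and the SD as a bar beside it (n = 3 libraries per group). RAB27B, SYTL2 and MLPH sit far above their controls, RAB38 and MYRIP below, and the groups overlap for MYO5A and RAB32.

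**Figure D2:**
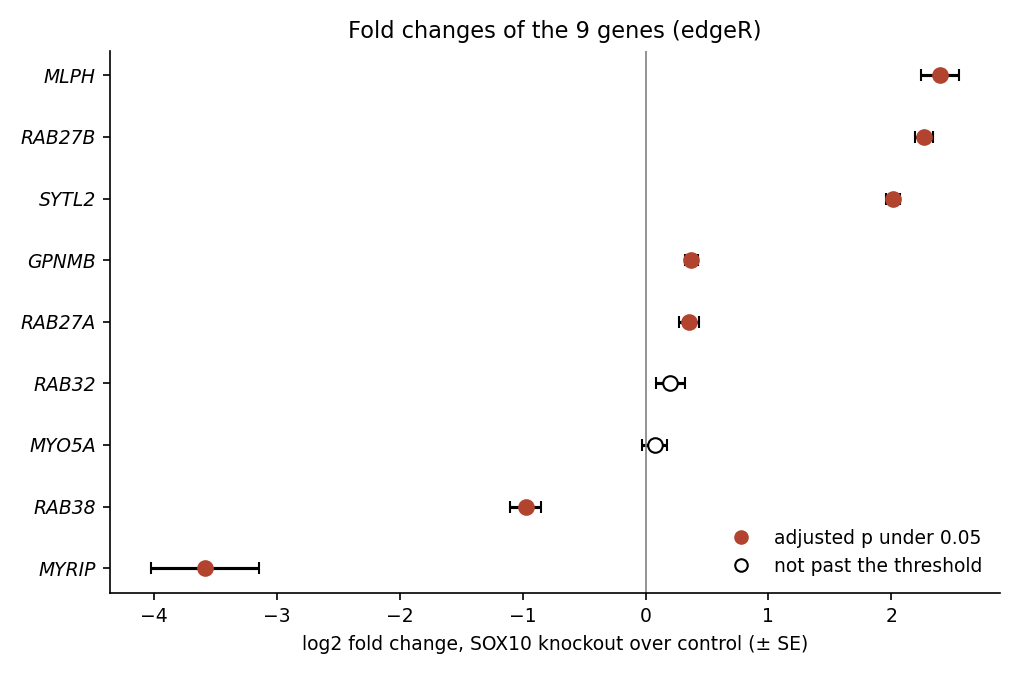
Fitted log2 fold changes of SOX10 knockout over control with their standard errors (edgeR), filled where the adjusted p is under 0.05. Values run from -3.59 for MYRIP to 2.40 for MLPH, and RAB32 and MYO5A lie nearest to 0.

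Upstream sequence is shown for the genes with the largest changes and for GPNMB, because SOX factors and MITF, a helix-loop-helix factor, bind short known motifs. RefSeq gave 15 windows for 7 of the 9 genes (GRCh38.p14, while the deposited counts are labelled hg38, the same assembly with no patch named), and RAB38 and SYTL2 had no entry. Each window of 250 bases ends at the base before an annotated transcript start. It was searched on both strands for the E-boxes CACGTG and CATGTG, the second read as CACATG on the other strand, and for the SOX motifs ACAAAG, whose other strand reads CTTTGT, and ACAATG, whose other strand reads CATTGT. Capitals mark the matches and all windows shown are on the plus strand, 5′ to 3′. The MLPH and MYRIP windows shown are ones with a match, as is the only window of GPNMB, so those shown do not represent all windows.
MLPH (chr2:237487001-237487250): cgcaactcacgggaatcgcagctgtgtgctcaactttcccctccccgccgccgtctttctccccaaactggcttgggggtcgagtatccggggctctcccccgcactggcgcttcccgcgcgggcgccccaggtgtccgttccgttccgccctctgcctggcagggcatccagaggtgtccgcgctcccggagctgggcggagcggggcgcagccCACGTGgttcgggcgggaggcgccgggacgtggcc
RAB27B (chr18:54717607-54717856): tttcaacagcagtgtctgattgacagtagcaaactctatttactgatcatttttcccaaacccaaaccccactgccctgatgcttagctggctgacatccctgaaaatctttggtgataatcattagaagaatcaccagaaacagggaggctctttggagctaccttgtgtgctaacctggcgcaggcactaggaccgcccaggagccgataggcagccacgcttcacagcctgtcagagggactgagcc
GPNMB (chr7:23246525-23246774): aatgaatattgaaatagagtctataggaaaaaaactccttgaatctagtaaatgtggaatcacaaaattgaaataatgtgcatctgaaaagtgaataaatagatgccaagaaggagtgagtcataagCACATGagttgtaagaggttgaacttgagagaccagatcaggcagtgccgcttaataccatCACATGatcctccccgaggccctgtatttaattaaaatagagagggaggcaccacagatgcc
MYRIP (chr3:39808664-39808913): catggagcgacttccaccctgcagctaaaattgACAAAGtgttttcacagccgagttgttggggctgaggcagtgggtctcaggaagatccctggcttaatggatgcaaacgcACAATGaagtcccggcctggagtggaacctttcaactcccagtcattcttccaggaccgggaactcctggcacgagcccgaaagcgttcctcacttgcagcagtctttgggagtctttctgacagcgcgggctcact
The MLPH window, 1 of 2 for this gene, holds CACGTG with its first base 35 bases upstream of the start, a motif present in 6.34% of 35116 windows of the same length over all genes. GPNMB holds CACATG at 123 and 62 bases upstream, a motif of 9.42% of windows. The MYRIP window shown, 1 of 3 for this gene, holds ACAAAG at 217 bases and ACAATG at 137 bases, which 13.7% and 9.29% of windows hold. A further MYRIP window at an internal start held the motif ACAAAG and an E-box of the second kind matched on each strand by overlapping letters, and 1 of 5 windows of RAB27A held ACAATG on each strand. No match was present in the windows of RAB27B, RAB32 and MYO5A, in the other MLPH window or in the remaining MYRIP window. Of the 15 windows 5 held a match to any of these motifs. The share of all windows with any of them was not computed, so no background stands beside this count. Taken separately, 15.2% of windows over all genes hold either E-box and 21.2% either SOX motif. A match describes these letters and not a bound site, and binding was not measured.

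The RAB27 GTPases were examined first, since they anchor the chain to the organelle. RAB27A (ENSG00000069974; GRCh38 chromosome 15, 55202966 to 55319113, minus strand) had 12.05, 12.5 and 13.1 CPM in SOX10 knockout libraries, against 9.29, 9.60 and 10.5 CPM in control libraries. All SOX10 knockout libraries lay above all control libraries, by a small margin. RAB27A rose 1.28-fold, which is 0.35 with a standard error of 0.08 on the log2 scale (adjusted p = 0.0103, edgeR). The call was lost without control replicate 2, and the adjusted p lay between 0.00605 and 0.0552 when any library was left out. Its exons overlap those of PIGB on the other strand by 2.75% and those of PIGBOS1 on the same strand by 3.26%. Neither PIGB (18.2 ± 1.99 CPM in SOX10 knockout and 15.2 ± 1.45 CPM in control libraries, adjusted p = 0.101) nor PIGBOS1 (11.2 ± 1.30 and 10.3 ± 1.20 CPM, adjusted p = 0.507) passed the edgeR test.

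RAB27B, the paralog of RAB27A that is best known from secretory cells and exosome release, changed far more. RAB27B (ENSG00000041353; chromosome 18, 54717860 to 54895516, plus strand) had 95.2, 101 and 109 CPM in SOX10 knockout libraries, against 20.1, 21.0 and 22.3 CPM in control libraries. The lowest SOX10 knockout library was more than 4 times the highest control library. RAB27B rose 4.82-fold, or by 2.27 ± 0.08 (SE) on the log2 scale, with an edgeR adjusted p of 2.15e-07. The transcripts of RAB27A and RAB27B share no run of identical bases longer than 17.

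The balance of the paralogs was compared within each library, which removes any effect of library scaling. There were 7.91, 8.14 and 8.29 reads of RAB27B for each read of RAB27A in SOX10 knockout libraries, against 2.16, 2.19 and 2.12 in control libraries. The log2 ratio was higher by 1.91 in SOX10 knockout libraries (means of 3.02 ± 0.03 and 1.11 ± 0.02), and p was 0.1 in an exact two-sided permutation test, the lowest value that its 20 arrangements of the libraries can give. Of 3 such ratios tested all had this p, which Benjamini-Hochberg adjustment over them leaves at 0.1. Scaled by exon length, RAB27B exceeded RAB27A 5.96 to 6.25 times in SOX10 knockout libraries and 1.60 to 1.65 times in control libraries. By this measure RAB27B was the more abundant RAB27 transcript in both groups, though merged exon length can exceed that of the transcript in use.

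Of the linkers between RAB27 and myosin, one rose and one was nearly lost. MLPH (ENSG00000115648; chromosome 2, 237485428 to 237555318, plus strand) had 15.4, 14.8 and 15.6 CPM in SOX10 knockout libraries, against 3.75, 2.36 and 2.58 CPM in control libraries. Control replicate 1 was the highest of its group, and still lay far below every SOX10 knockout library. MLPH rose 5.27-fold, or by 2.40 ± 0.16 (SE) on the log2 scale (adjusted p = 8.21e-06, edgeR), and that value lay between 2.27 and 2.64 when any library was left out.

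MYRIP (ENSG00000170011; chromosome 3, 39808914 to 40260321, plus strand) was scarce everywhere. It had 3, 1 and 2 reads in SOX10 knockout libraries, against 24, 28 and 21 reads in control libraries, or 0.0417, 0.0128 and 0.0255 CPM against 0.334, 0.378 and 0.291 CPM. All SOX10 knockout libraries were thus at or under the floor of 3 counts. From the summed 6 and 73 reads MYRIP was 12.8 times as abundant in control as in SOX10 knockout libraries, with an exact 95% interval of 5.58 to 35.9 that covers counting error only, and it fell in the edgeR test (adjusted p = 3.81e-04). Its exons overlap the antisense gene EIF1B-AS1 by 2.66%, which had 0.143 ± 0.0861 CPM in SOX10 knockout and 0.183 ± 0.0641 CPM in control libraries and did not pass the edgeR test (adjusted p = 0.664).

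The 2 linkers therefore stood in very different proportions in the 2 groups. MLPH reads outnumbered MYRIP reads 370, 1160.0 and 611 times in SOX10 knockout libraries, against 11.3, 6.25 and 8.86 times in control libraries. The log2 ratio was higher by 5.88 in SOX10 knockout libraries (exact two-sided permutation test, p = 0.1, the smallest possible). Because MYRIP was so low, this size depends on the constant added before taking logs. It was 5.88 with 0.5 added to the counts and 2.90 with 0.5 added to CPM, with the same sign.

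**Figure D3:**
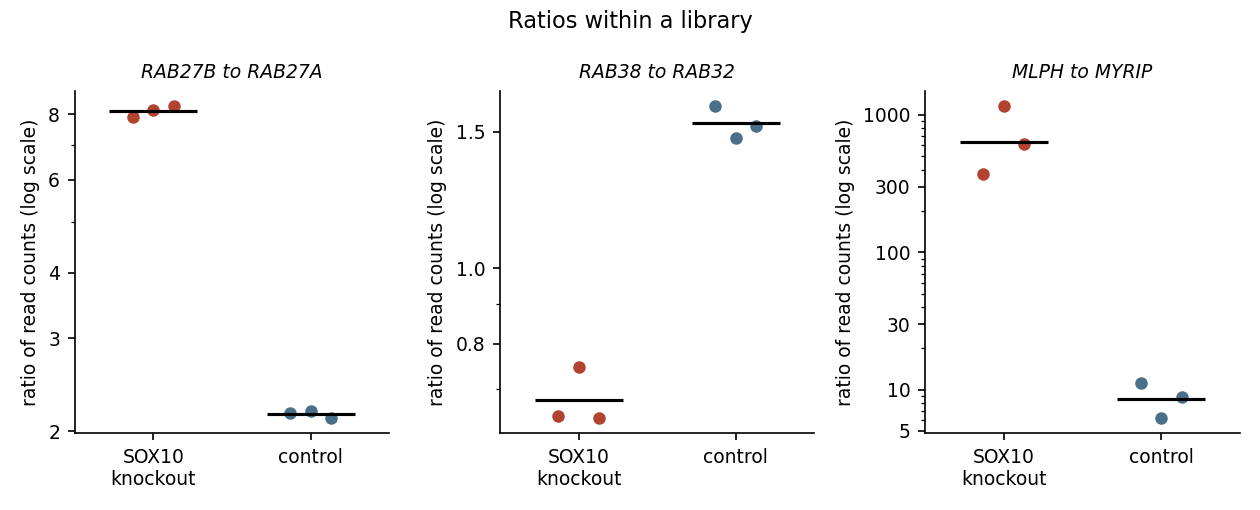
Ratio of the read counts of 2 genes within each library on a log scale, SOX10 knockout (red) left of control (blue), with the geometric mean as a line. RAB27B to RAB27A is about 8 against 2, RAB38 to RAB32 lies below 1 against above 1, and MLPH to MYRIP is 370 or more against 11.3 or less.

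SYTL2, the membrane-docking effector, rose as well. SYTL2 (ENSG00000137501; chromosome 11, 85694224 to 85811159, minus strand) had 134, 132 and 128 CPM in SOX10 knockout libraries, against 31.6, 33.3 and 32.7 CPM in control libraries. Replicates were tight and the groups were widely separated. SYTL2 rose 4.04-fold, or by 2.01 ± 0.06 (SE) on the log2 scale, with an edgeR adjusted p of 1.21e-07.

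The motor at the end of the chain showed no difference past the threshold in the main test. MYO5A (ENSG00000197535; chromosome 15, 52307283 to 52529050, minus strand) had 132, 117 and 107 CPM in SOX10 knockout libraries, against 122, 117 and 98.8 CPM in control libraries. The groups overlapped almost completely. The log2 fold change was 0.07 with a standard error of 0.10 (edgeR adjusted p = 0.653). Its sign turned, to -0.013 without control replicate 3 and to -1.4e-04 without SOX10 knockout replicate 1. MYO5A passed only when the replicate number was fitted as a block.

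RAB32 and RAB38, the close relatives that sort cargo to the organelle, differed from each other. RAB38 (ENSG00000123892; chromosome 11, 88113242 to 88175467, minus strand) had 9.84, 12.96 and 12.5 CPM in SOX10 knockout libraries, against 21.4, 21.7 and 26.3 CPM in control libraries. Every SOX10 knockout library lay below every control library, and RAB38 fell to 50.8% of the control mean, which is -0.98 ± 0.12 (SE) on the log2 scale (adjusted p = 4.88e-04, edgeR). RAB32 (ENSG00000118508; chromosome 6, 146543693 to 146554965, plus strand) had 15.2, 17.4 and 19.5 CPM in SOX10 knockout libraries, against 13.2, 14.8 and 17.2 CPM in control libraries. The ranges overlapped, and the log2 fold change of 0.20 (SE 0.12) did not pass the edgeR test (adjusted p = 0.269). RAB32 passed only when the replicate number was fitted as a block.

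Set against each other within a library, the pair changed order. There were 0.646, 0.747 and 0.642 reads of RAB38 per read of RAB32 in SOX10 knockout libraries, against 1.62, 1.47 and 1.53 in control libraries. All ratios of SOX10 knockout libraries were below 1 and all those of control libraries above it, also after scaling by exon length (0.534 to 0.620 and 1.22 to 1.35). The log2 ratio in SOX10 knockout libraries differed by -1.18 from that in control libraries (exact two-sided permutation test, p = 0.1, the smallest possible). The transcripts of RAB32 and RAB38 share no identical run longer than 17 bases.

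GPNMB was the most abundant of the 9 and changed little in relative terms. GPNMB (ENSG00000136235; chromosome 7, 23235967 to 23275108, plus strand) had 241, 248 and 248 CPM in SOX10 knockout libraries, against 188, 190 and 191 CPM in control libraries. The replicates agreed closely and the groups did not overlap. GPNMB rose 1.30-fold, or by 0.37 ± 0.05 (SE) on the log2 scale, with an edgeR adjusted p of 8.81e-04.

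Levels were compared between genes per kilobase of merged annotated exon, a length that can exceed that of the transcript in use. In SOX10 knockout libraries GPNMB led with 40.7 ± 0.72 CPM per kb, followed by RAB32 (14.3 ± 1.75), RAB27B (13.7 ± 0.90), SYTL2 (11.7 ± 0.31), MYO5A (9.14 ± 0.97), RAB38 (8.04 ± 1.15), RAB27A (2.24 ± 0.09), MLPH (2.03 ± 0.05) and MYRIP (0.0045 ± 0.0025). The ranges of RAB32 and RAB27B overlapped there, as did those of MYO5A and RAB38. In control libraries the order was GPNMB (31.4 ± 0.22 CPM per kb), RAB38 (15.8 ± 1.88), RAB32 (12.4 ± 1.66), MYO5A (8.68 ± 0.95), SYTL2 (2.89 ± 0.07), RAB27B (2.84 ± 0.15), RAB27A (1.75 ± 0.11), MLPH (0.386 ± 0.10) and MYRIP (0.0569 ± 0.0074), and only SYTL2 and RAB27B overlapped among neighbours. RAB38 thus stood at rank 2 of 9 in control and at rank 6 in SOX10 knockout libraries, while MLPH stayed at rank 8 in both.

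**Figure D4:**
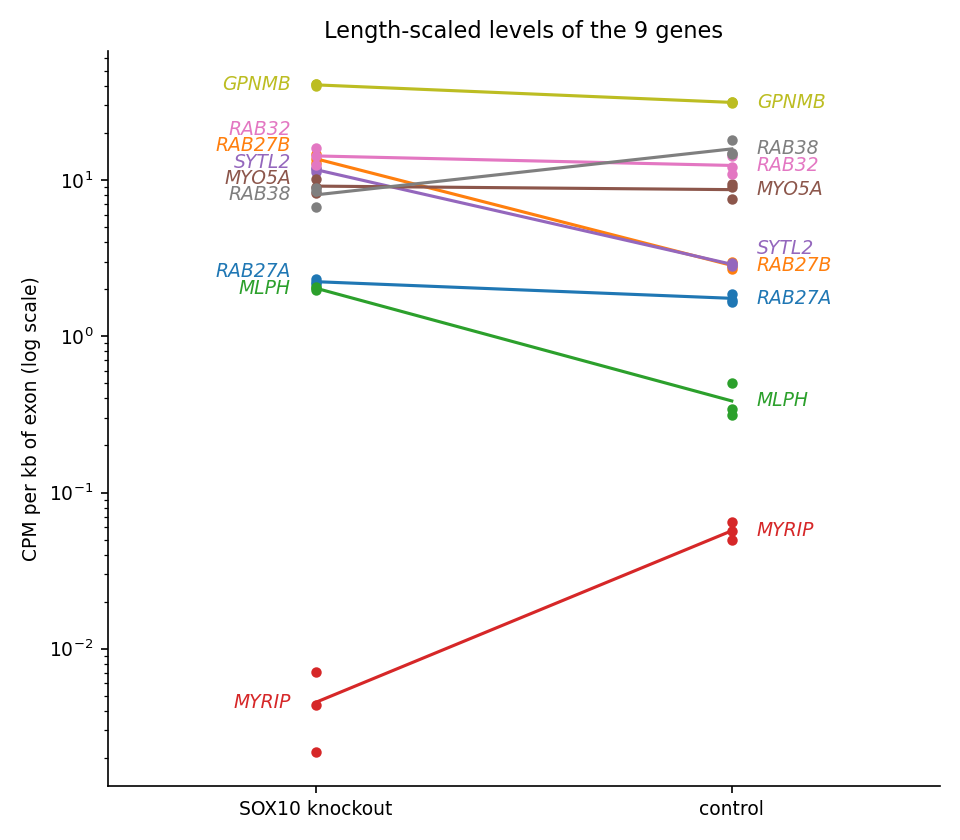
CPM per kilobase of exon on a log scale for the 9 genes, SOX10 knockout on the left and control on the right, points for libraries and lines between group means. RAB27B and SYTL2 stand at 13.7 and 11.7 on the left, against 2.84 and 2.89 on the right, and RAB38 crosses RAB32.

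Further partners of RAB27 moved in both directions. Of 16 listed effectors and regulators 14 were tested, of which 4 rose, 2 fell and 8 did not pass. That is 42.9% called, beside 28% of all tested genes, and the median log2 fold change was 0.06, beside -0.02 over all tested genes. RPH3AL, which rose, had enough reads to be tested only through its SOX10 knockout libraries. UNC13D, the Munc13-4 protein that primes lytic granules, averaged 7.58 ± 0.389 CPM in SOX10 knockout and 1.83 ± 0.0145 CPM in control libraries and rose 4.14-fold (edgeR adjusted p = 9.86e-07). SYTL3 rose to 1.10 ± 0.0145 CPM in SOX10 knockout libraries, against 0.281 ± 0.116 CPM in control libraries (edgeR adjusted p = 0.00109). Of the same gene family, SYTL5 and SYTL4 fell, while SYTL1 did not pass. SYTL5 fell to 45.8 ± 2.04 CPM in SOX10 knockout libraries, against 215 ± 12.05 CPM in control libraries, which is -2.23 ± 0.07 (SE) on the log2 scale (adjusted p = 1.63e-07, edgeR). SYTL4, or granuphilin, fell to 2.86 ± 0.136 CPM in SOX10 knockout libraries, against 4.28 ± 0.375 CPM in control libraries (edgeR adjusted p = 0.00407). The exons of SYTL4 overlap those of SRPX2 on the other strand by 17.5%, and SRPX2 stood at 10.7 ± 0.298 and 7.73 ± 0.418 CPM in SOX10 knockout and control libraries; the strand setting used in counting was not stated.

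Among 11 genes listed as partners of actin-based capture 4 rose, none fell and 7 did not pass the edgeR test (36.4% called, beside 28% of all tested genes, median log2 fold change 0.17). MYO5B, the class V myosin of recycling endosomes, averaged 5.83 ± 0.545 CPM in SOX10 knockout and 1.27 ± 0.265 CPM in control libraries and rose 4.60-fold (edgeR adjusted p = 1.49e-05), and the difference from its relative MYO5A was not tested. The number called was 3 without control replicate 2 or 3 and without SOX10 knockout replicate 1 or 2.

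The machinery that loads cargo with RAB32 and RAB38 was examined next. Of 24 tested genes of the BLOC and AP-3 complexes and their partners 2 rose, 1 fell and 21 did not pass the edgeR test (12.5% called, beside 28% of all tested genes, median log2 fold change -0.03). AP3S1, a small subunit of AP-3, rose to 354 ± 44.4 CPM in SOX10 knockout libraries, against 176 ± 23.97 CPM in control libraries (edgeR adjusted p = 3.04e-04). ATG12, an autophagy gene on the other strand whose exons cover 11.8% of those of AP3S1, rose to a like degree, 197 ± 14.9 against 100.4 ± 12.9 CPM (edgeR adjusted p = 1.33e-04), and the part of shared reads was not tested. STX12, an endosomal syntaxin, rose to 62.4 ± 2.90 CPM in SOX10 knockout libraries, against 51.7 ± 4.49 CPM in control libraries (edgeR adjusted p = 0.0312), and HPS5, a BLOC-2 subunit, fell to 67.2 ± 1.33 CPM in SOX10 knockout libraries, against 79.3 ± 1.28 CPM in control libraries (edgeR adjusted p = 0.0114). The number called was 1 without control replicate 2 and without SOX10 knockout replicate 2, and 5 without control replicate 3.

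Microtubule motors carry melanosomes over long distances. Of 14 tested kinesin, dynein and adaptor genes 1 rose and 1 fell (14.3% called, beside 28% of all tested genes, median log2 fold change 0.01). RILP, an adaptor of RAB7, rose to 2.73 ± 0.391 CPM in SOX10 knockout libraries, against 1.78 ± 0.227 CPM in control libraries (edgeR adjusted p = 0.0186), and KLC4, a kinesin light chain, fell to 4.09 ± 0.312 CPM in SOX10 knockout libraries, against 5.72 ± 0.295 CPM in control libraries (edgeR adjusted p = 0.00603). Only 1 of these genes was called without control replicate 1 or 2 or SOX10 knockout replicate 3, and 4 without control replicate 3. KLC4 overlaps exons of CUL7 and MRPL2 on the other strand by 5.12% and 5.81%.

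Of 13 tested RAB genes outside the 9, 1 rose and 1 fell (15.4% called, beside 28% of all tested genes, median log2 fold change -0.02). RAB3B, a GTPase of regulated secretion, rose to 21.7 ± 3.70 CPM in SOX10 knockout libraries, against 6.997 ± 0.919 CPM in control libraries, 3.10-fold (edgeR adjusted p = 4.83e-05). RAB11B, a recycling endosome GTPase with a part in pigment transfer, fell to 30.1 ± 0.884 CPM in SOX10 knockout libraries, against 35.6 ± 0.796 CPM in control libraries (edgeR adjusted p = 0.0169). Counts were 1 without control replicate 1 or 2 or SOX10 knockout replicate 2 or 3, and 3 without control replicate 3 or SOX10 knockout replicate 1.

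Lysosomal genes were listed because GPNMB also resides in lysosomes. Of 15 listed, 14 were tested, 4 rose, none fell and 10 did not pass the edgeR test (28.6% called, close to the 28% of all genes, median log2 fold change 0.11). CTSK, the gene of cathepsin K, rose to 24.7 ± 0.827 CPM in SOX10 knockout libraries, against 11.3 ± 0.793 CPM in control libraries (edgeR adjusted p = 8.91e-06), and CTSB, the gene of cathepsin B, rose to 173 ± 1.09 CPM in SOX10 knockout libraries, against 123 ± 4.92 CPM in control libraries (edgeR adjusted p = 2.51e-04).

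**Figure D5:**
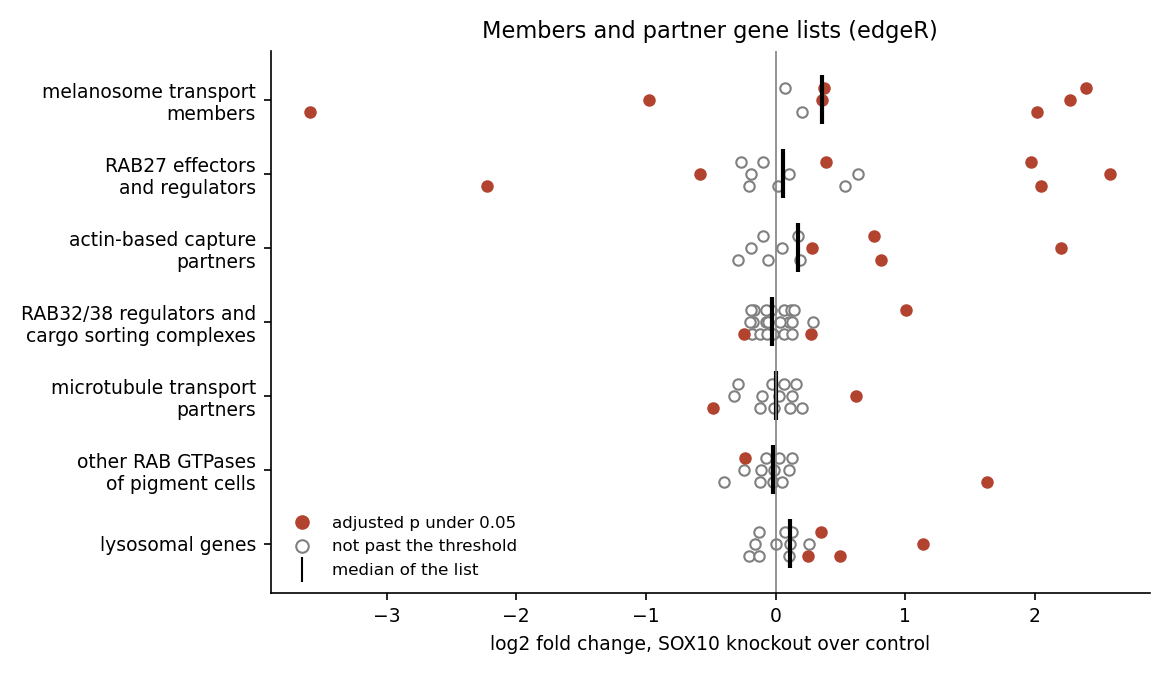
Log2 fold changes of SOX10 knockout over control for each tested gene of the 9 and of 6 partner lists, filled where the edgeR adjusted p is under 0.05, with the list's median as a bar. Genes of the RAB27 list spread to both sides as the 9 genes do, and 21 of 24 cargo sorting genes are unfilled around 0.

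Markers of other cell types were measured in the same libraries. Of 10 fibroblast markers 7 rose and 1 fell (80% called, beside 28% of all tested genes). POSTN, COL3A1, COL1A2 and THY1, which rose, had enough reads to be tested only through their SOX10 knockout libraries. The summed fibroblast level was 28.1 to 30.3 CPM in SOX10 knockout and 16.8 to 20.1 CPM in control libraries. LUM made up 14.1 ± 1.88 and 7.84 ± 1.98 CPM of these sums, PDGFRA fell, and PDGFRB and DCN did not pass. Of 5 tested among 10 keratinocyte markers 3 rose and 1 fell (80% called, sums of 9.52 to 10.4 CPM in SOX10 knockout and 10.7 to 12.5 CPM in control libraries). KRT14 made up 0.249 ± 0.0110 and 7.16 ± 0.789 CPM of these, and DSG3 and IVL had at most 3 counts in any library. KRT5 and EPCAM, which rose, had enough reads to be tested only through their SOX10 knockout libraries. Of 5 tested among 8 endothelial markers 2 rose and 1 fell (60% called, sums of 4.15 to 5.15 CPM in SOX10 knockout and 7.31 to 9.16 CPM in control libraries), with ERG at 0. KDR was the marker that fell, with 0.175 ± 0.128 CPM in SOX10 knockout and 6.32 ± 1.098 CPM in control libraries. KDR had enough reads to be tested only through its control libraries, and CDH5 and PECAM1 rose. Their part in the results was not tested. GPNMB and UNC13D are also known from leukocytes. Of 10 leukocyte markers 3 were tested, of which 1 rose and 1 fell (66.7% called). CSF1R, which rose, had enough reads to be tested only through its SOX10 knockout libraries. TYROBP and AIF1 had 0 counts in every library, and SPI1, ITGAM and CD163 had at most 3 counts in any. The summed leukocyte level was 2.22 to 2.96 CPM in SOX10 knockout and 11.1 to 14.4 CPM in control libraries, of which LYZ made up 1.64 ± 0.360 and 12.1 ± 1.80 CPM. All libraries are labelled as the A375 line. Fewer cells with RNA of a marker and less of that RNA per cell cannot be told apart in these bulk libraries.

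The genes most like the member with the largest increase and the member with the largest decrease were sought over the 6 libraries among 12006 protein-coding genes, by the root mean square distance of centred log2 CPM. Those nearest to MLPH were EPAS1 at 0.13, CD163L1 at 0.15 and CDH5 at 0.15 on the log2 scale. EPAS1, a hypoxia-inducible transcription factor gene, averaged 14.4 ± 1.41 CPM in SOX10 knockout and 2.62 ± 0.404 CPM in control libraries. Those nearest to MYRIP were POU3F2 at 0.18, SHISA2 at 0.18 and SPSB4 at 0.19. SPSB4 averaged 0.412 ± 0.0581 CPM in SOX10 knockout and 2.89 ± 0.154 CPM in control libraries. A prior count of 2 draws the low values of MYRIP toward each other, so its distances describe a smaller change than its raw ratio.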

How the data were processed

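Gene expression was measured by RNA sequencing of polyadenylated RNA in 6 libraries of A375 cells, prepared with a stranded kit per the labels' protocols. The aligner HISAT2, the counter HTSeq and build hg38 come from the submitters' processing notes. Versions, annotation release and strand setting: not given in the sources used here. The table the authors deposited holds whole-number read counts for each gene with no scaling. All 58721 identifiers were found in GENCODE release 29, which gave coordinates, exon lengths and overlaps, and 58252 had a current symbol. Totals were 70075002 to 78148565 counts per library, and 3 counts stood at 0.0383 to 0.0417 CPM. Protein-coding genes held 95.9% to 96.3% and mitochondrial genes 0.526% to 0.870% of the counts. No 2 replicates agreed within sampling noise.

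The main test was edgeR 4.0.16 under R 4.3.3 (filterByExpr, TMM, two-sided quasi-likelihood test, Benjamini-Hochberg adjustment over 19263 genes, threshold 0.05). CPM use TMM-scaled library sizes. Standard errors come from the same fit. Ratios within a library used counts with 0.5 added and an exact permutation test. Alternatives were DESeq2 1.42.0, limma-voom (limma 3.58.1), other scalings and filters, the replicate number as a block, and leaving out each library. Tables and plots were made in Python 3.11.15 with pandas 2.3.3, scipy 1.17.1 and matplotlib 3.10.9.

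The members and lists were chosen with earlier results of these data known. All 9 members and SOX10 are named, and for each partner list up to 2 genes in each direction with the smallest p. Named besides are markers, overlapping genes, SYTL1, RPH3AL and 3 genes of most similar pattern for 2 members. A gene that this rule also names is not reported here.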

Additional observations from a re-analysis of the deposited data

How the results depend on the processing

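Of 53 log2 fold changes of the 9 genes under other tools, scalings and filters, all 53 kept their direction and their side of the threshold; MYRIP could not be tested where at least 1 CPM was required in 3 libraries. Leaving out a library kept 51 of 54. The exceptions were RAB27A without control replicate 2 (adjusted p = 0.0552) and MYO5A, whose log2 fold change ranged from -0.013 to 0.15. The number of the 9 genes called was 6 to 7. Called genes ranged from 1 to 5 for cargo sorting, 1 to 4 for microtubule transport and 1 to 3 for other RAB genes, of which 1 was called with scaling by total counts. The 3 ratios within a library kept their direction under every alternative run, and their design cannot pass the threshold.

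Replicate numbers matched the libraries only in part. Deviations from the group means of same-numbered libraries correlated at 0.302, -0.00438 and 0.314. SOX10 knockout replicates 1 and 3 correlated best with the control library of their own number. SOX10 knockout replicate 2 lay between -0.0366 and 0.0379 with every control library. With the replicate block 9813 of all genes were called in place of 5396, 10 RAB27 partners, 8 actin partners, 14 cargo sorting genes, 9 microtubule partners, 6 other RAB genes and 11 lysosomal genes. MYO5A (log2 fold change 0.08, adjusted p = 0.0403) and RAB32 (0.20, adjusted p = 0.00246) passed under the block. The cause of these changes was not tested. Depth limits MYRIP, with 1 to 3 reads in SOX10 knockout libraries.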
